A study of Mus musculus with 52 samples.

Results

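Of the 16020 ERR1 peaks called in mouse brown adipose tissue (BAT) at room temperature (RT), 2086 were also present in the cold list and lay away from PPARG. They are called PPARG-free constant sites here. These sites were chosen by measured values: each RT peak on chromosomes 1 to 19 and X had to overlap a peak of the ERR1 cold list (45800 peaks) by at least 1 bp and no peak of any of 6 PPARG lists. ERR1 and PPARG values are therefore given only as a description of the choice. Another 13113 RT peaks overlapped both a cold peak and a PPARG peak (PPARG-bound constant sites), 195 RT peaks had neither, and 11242 cold peaks had no RT peak and no PPARG peak (cold-only PPARG-free sites).

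BAT is the fat tissue that burns lipid to make heat, and the series followed transcription factors in it by chromatin immunoprecipitation sequencing (ChIP-seq) in mice at RT or after 4 h of cold stress. ERR1 was pulled down with an antibody to the protein in WT mice, with 1 library per condition, so no ERR1 change could be tested. PPARG was profiled in WT mice (3 libraries at RT, 3 in cold). Knock-in mice with an HA tag on the factor gave PPARA (2 at RT, 3 in cold), PGC1A (3 in cold), CEBPA (3 at RT) and CEBPB (2 in cold), so 1 anti-HA antibody served all 4. For PGC1A replicate 3 the title names PGC1A but the genotype names a CEBPA knock-in; the title was followed. H3K27ac, a histone mark that active enhancers and promoters carry, came from a WT cohort (3 libraries at RT, 3 in cold) and in Txnip KO and Txnip WT mice (2 libraries per genotype and condition). Ages, and how the Txnip allele was made, were not used here. Since no label ties libraries to separate animals, a p-value for a cold change reflects only how far libraries of 1 group lie apart, and that spread may be technical. Where 2 sets of sites are compared, the libraries of a target are pooled over cohorts and conditions. That p-value reflects only how steadily they give the same difference at fixed sites.

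ERR1 is the orphan nuclear receptor ERRα, encoded by Esrra, which needs no known hormone to act and is switched up by the coactivators PGC1A and PGC1B. It binds an extended half-site and is best known for driving genes of the respiratory chain, the TCA cycle and fatty acid oxidation in tissues rich in mitochondria, BAT among them. PPARG directs fat cell formation and binds a different arrangement of the same half-site, a direct repeat with its partner RXR.

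Sequence was at hand for promoters, the stretch from 250 bases before to 50 after a gene start (RefSeq, GRCm38.p6). Only 13 PPARG-free constant sites had their ERR1 summit in such a window: those of Ankmy1, Gpr35, Ak1, Tars2, Mup21, Slc24a2, Clspn, Rasl2-9, Nfkbid, Map3k9, Idnk, Cox7b and S100g. The extended half-site TNAAGGTCA, searched on both strands, was found in 2 of the 13 (15.4%), against 21 of 1394 windows with the summit of a PPARG-bound constant site (1.51%) and 219 of all 21045 promoter windows (1.04%). The core AGGTCA, which every extended match contains, was in 5 of the 13 (38.5%), in 20.7% of PPARG-bound windows and in 14.6% of all windows. Of 98 windows with the summit of a cold-only PPARG-free site, 3 (3.06%) held the extended half-site and 23.5% the core. Counts of 2 and 5 among 13 windows are a description only. The 5 stretches that hold a match are shown because they are the only PPARG-free constant sites whose letters could be read next to an ERR1 half-site. Capitals mark the extended half-site in Nfkbid and S100g and the core in the others, on either strand, and all lie before the gene start:
Nfkbid, chr7:30421552-30421637, plus strand: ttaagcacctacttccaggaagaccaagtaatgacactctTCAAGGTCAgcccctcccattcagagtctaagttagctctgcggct
S100g, chrX:162964661-162964746, minus strand: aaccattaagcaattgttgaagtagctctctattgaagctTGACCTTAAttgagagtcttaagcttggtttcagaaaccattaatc
Idnk, chr13:58157507-58157592, plus strand: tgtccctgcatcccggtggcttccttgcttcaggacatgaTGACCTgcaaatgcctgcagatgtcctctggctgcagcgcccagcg
Ak1, chr2:32628172-32628346, plus strand: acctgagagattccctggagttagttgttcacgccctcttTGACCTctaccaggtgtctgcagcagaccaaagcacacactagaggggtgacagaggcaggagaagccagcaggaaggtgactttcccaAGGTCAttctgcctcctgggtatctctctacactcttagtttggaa
Cox7b, chrX:106015636-106015699, plus strand: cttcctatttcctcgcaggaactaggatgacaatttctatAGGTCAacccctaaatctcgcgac

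Counted from the gene start, with negative positions before it, the extended match began at -139 in Nfkbid, which encodes an atypical IκB protein, and at -107 in S100g, which encodes a small calcium-binding protein. The core began at -102 in Idnk (a gluconate kinase), at -178 and -89 in Ak1 (adenylate kinase, which interconverts adenine nucleotides) and at -24 in Cox7b (a subunit of respiratory complex IV). ERR1 summits lay at -206, -196, -71, -194 and -115 in Nfkbid, S100g, Idnk, Ak1 and Cox7b. Deposited ERR1 fold enrichment at RT and in cold was 10.8 and 28.2 at Nfkbid, 5.41 and 8.96 at S100g, 17.8 and 58.9 at Idnk, 7.73 and 39.7 at Ak1, and 4.64 and 33.3 at Cox7b. H3K27ac peaks overlapped the Idnk, Ak1 and Cox7b sites in all 14 libraries, the Nfkbid site in 13 and the S100g site, which lies inside Ctps2, in none. PGC1A peaks lay on the Idnk, Ak1 and Cox7b sites in 1 library each and on neither of the sites with the extended match. The direct repeat of AGGTCA with 1 base between was in none of the 13 windows, in 1 of 1394 PPARG-bound windows and in 10 of all 21045 windows. Of the other motifs searched, the GC box GGGCGG was in 4 of the 13 (30.8%; 76.4% of PPARG-bound and 46.7% of all windows) and the ETS core CCGGAAG in 1 (7.69%; 21.1% and 11.7%). The C/EBP letters TTGCNNAA, the E-box CACGTG and the CRE TGACGTCA were each in 1 of the 13, against 10.3%, 7.91% and 2.26% of all windows. In the cold-only windows the GC box was in 62.2%, the ETS core in 6.12%, the C/EBP letters in 20.4%, the E-box in 17.3% and the CRE in 2.04%. The NRF1 letters GCGCATGCG and a palindromic NF1 site were in none of the 13, against 2.37% and 0.0333% of all windows.

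In the list that defined them, the sites were not the strongest. The deposited RT fold had a median of 6.62 (interquartile range 5.41 to 8.74, highest 30.9), against 7.70 for PPARG-bound constant sites (5.89 to 11, highest 86.6). The median site stood at percentile 41.8 of all RT peaks and at 79.5 of all cold peaks, and ranks from lists of different lengths show no change. The cold list gave a higher fold for 1825 of 2086 sites (87.5%), as it did for 88.9% of PPARG-bound constant sites. A fold belongs to the authors' peak caller and to 1 library, so this was not tested. The nearest PPARG peak was a median 5.21 kb away: 405 sites (19.4%) had one within 1 kb, and 723 (34.7%) had none within 10 kb.

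Just inside the PPARG limit, a site in Myo18a (RT fold 10.3) lay 1 bp from a PPARG peak, a site near Arhgef37 (11.7) 2 bp and a site in Kifc3 (28.6) 2 bp. Just outside, sites near Nfasc (9.75), in Kiz (10.1) and near Cebpb (8.51) were overlapped by PPARG over 1 bp. At the cold limit, sites in Ica1 (6.16), Pitpnm2 (4.37) and Sirt3 (4.64) shared 13, 26 and 26 bp with a cold ERR1 peak. RT sites in Ppp2r3a (4.25), Deptor (5.15) and Auh (5.41) missed one by 1, 2 and 11 bp.

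Of the 12 strongest sites with different nearest genes, 5 lay in a gene body, and they differed widely in their other marks. The highest RT fold, 30.9 (cold 50.6), was at chr4:152996571-152997055, 376 kb from the body of Ajap1, a cell junction protein, where H3K27ac was present in 1 of 14 libraries and no other factor had a peak. The second, in the kinesin gene Kifc3 (28.6 and 37.8), was the site 2 bp from PPARG, with H3K27ac in all 14 libraries and PGC1A in 1. A site in Creb3l1 (27.4 and 58.4), which encodes a membrane-bound transcription factor, had PGC1A in 1 library and no H3K27ac. Gpd2, the mitochondrial glycerol-3-phosphate dehydrogenase that feeds cytosolic electrons to the respiratory chain, held a site at chr2:57327398-57327801 with the highest cold fold of these (27.1 and 78.1). That Gpd2 site had PGC1A peaks in 3 of 3 libraries, a CEBPB peak in 1 of 2, no PPARA or CEBPA peak, and H3K27ac in 10 of 14.

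The other strong sites fell into a few patterns. Sites near Sat1, which acetylates polyamines (26.3 and 65.3), and near Prkce, protein kinase C epsilon (23.9 and 58.9), carried PGC1A (3 and 2 libraries), CEBPA (2 and 3) and CEBPB (2 and 2), with H3K27ac in 12 and 11 libraries. The sites in Lrrc8b, a volume-regulated anion channel subunit (26.7 and 59.7), and near Nmbr, the neuromedin B receptor (24.0 and 64.0), had both CEBPA and CEBPB and no H3K27ac. The sites near Magohb, of the exon junction complex (24.9 and 19.6), and near Id2, an inhibitor of helix-loop-helix factors (23.2 and 35.2), had H3K27ac in 1 and 0 libraries.

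PPARG-free constant sites lay away from gene starts. The summit was in a gene body for 1290 sites (61.8%), against 59.1% of PPARG-bound constant sites and 64.8% of cold-only PPARG-free sites. A further 260 (12.5%) lay within 10 kb of a body, 348 (16.7%) between 10 and 100 kb, and 188 (9.01%) beyond. Distance to a gene start could be measured for 2021 sites, against the starts of the 17274 protein-coding genes with a promoter sequence, and its median was 31.9 kb, against 16.8 kb for PPARG-bound and 27.3 kb for cold-only sites. Within 1 kb of a start were 85 sites (4.21%), against 3060 PPARG-bound sites (24.0%) and 508 cold-only sites (4.69%). PPARG was used to choose the sites, and sites of 1 list pair are not replicates, so these shares are not tested.

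**Figure D1:**
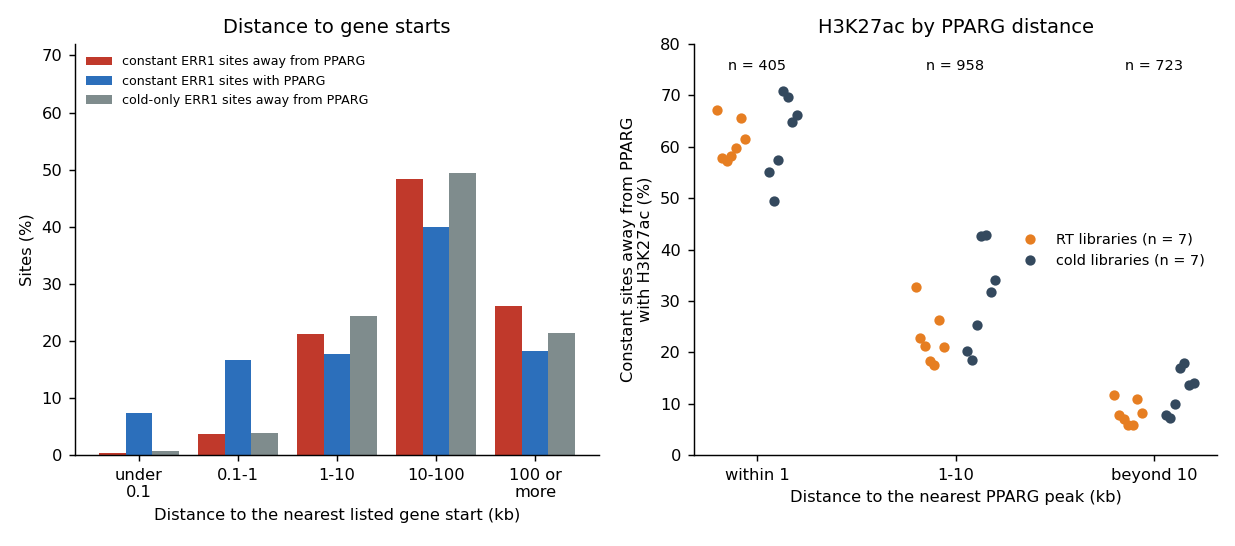
Left, percent of ERR1 sites (vertical axis) by distance to the nearest listed gene start in kb, for the 3 sets of sites; the PPARG-bound constant sites alone have large bars under 1 kb. Right, percent of the PPARG-free constant sites overlapped by an H3K27ac peak, 1 point per library, by distance in kb to the nearest PPARG peak; all 14 points within 1 kb (49.4 to 70.9%) lie above all points of the other groups.

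Most PPARG-free constant sites carried little H3K27ac. In the WT cohort, H3K27ac peaks overlapped 32.1, 24.4 and 23.3% of them in the 3 RT libraries and 22.7, 20.7 and 26.3% in the 3 cold libraries. In Txnip WT mice the shares were 28.7 and 24.4% at RT and 31.9 and 33.4% in cold. In Txnip KO mice they were 21.8 and 21.7% at RT and 39.2 and 39.4% in cold. All values lay far under those of PPARG-bound constant sites, 73.6 to 87.3% over the same libraries. The share was lower by 53.7 percentage points on average and lower in 14 of 14 libraries (exact sign-flip permutation over libraries, two-sided, p = 0.000122, the smallest 14 libraries allow; Benjamini-Hochberg adjusted over the 10 share tests, 0.00061). Restricting both sets to the interquartile range of RT folds left a difference of -53.3 points, and sites farther than 1 kb from a gene start gave -50.5.

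Set beside cold-only PPARG-free sites, the constant ones carried slightly more of the mark. The share was higher by 4.86 points on average and higher in 14 of 14 libraries (exact sign-flip permutation, two-sided, p = 0.000122; adjusted 0.00061). The difference shrank to 3.23 points with both sets held to deposited folds of 5.41 to 8.74 (same test, p = 0.000122). Those folds came from the RT list for constant sites and the cold list for cold-only ones, so ERR1 strength was not matched. In the cold list the median fold was 12.2 for constant and 5.12 for cold-only sites. With only H3K27ac peaks of −log10 q of at least 10 the difference was 1.15 points (same test, p = 0.00745). By site, 1034 of 2086 (49.6%) had H3K27ac in none of the 14 libraries and 248 (11.9%) in all 14. PPARG-bound constant sites showed the opposite split, with 7.22% in none and 66.2% in all.

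**Figure D2:**
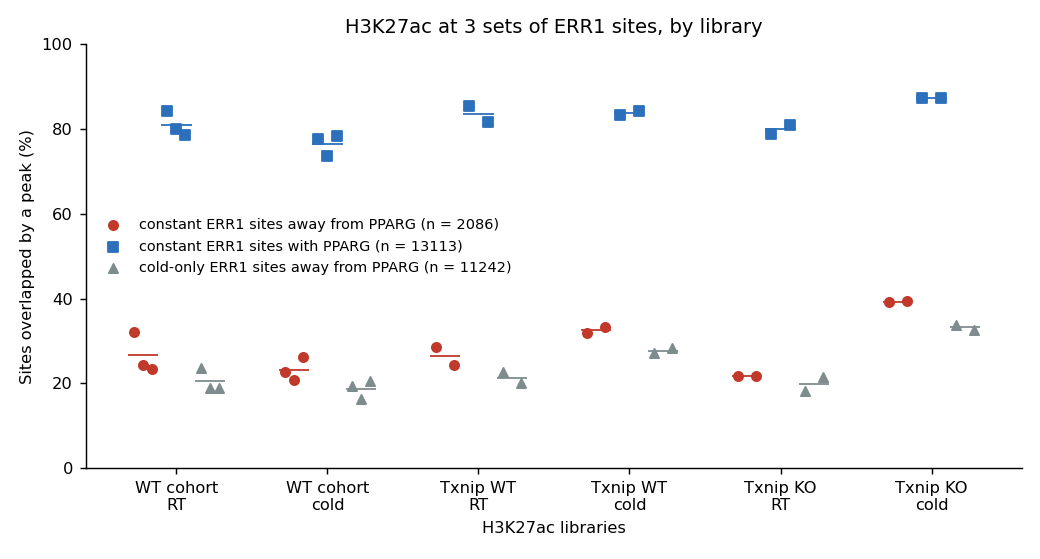
Percent of sites overlapped by an H3K27ac peak (vertical axis) in each of the 14 libraries, grouped by cohort and condition; points are libraries, short lines are group means. The PPARG-free constant sites lie between 20.7 and 39.4%, under the PPARG-bound constant sites (73.6 to 87.3%) in every library.

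H3K27ac at these sites went with nearness to PPARG peaks and to gene starts. Of the 405 sites with a PPARG peak within 1 kb, 81.0% had H3K27ac in at least 1 library and 38.8% in all 14. Those shares were 55.5 and 8.04% for the 958 sites 1 to 10 kb from PPARG and 26.6 and 1.94% for the 723 sites farther away. Within 1 kb of a gene start 84.7% of 85 sites had the mark in at least 1 library, against 48.9% of 1936 sites farther away. With sites split into 4 equal groups by RT fold, from weakest to strongest, 51.5, 49.3, 44.1 and 56.7% had H3K27ac in at least 1 library. The 248 sites marked in every library had the same median RT fold as the 1034 unmarked ones, 6.62. They lay a median 0.636 kb from PPARG and 5.35 kb from a start, against 10.6 and 53.3 kb for the unmarked ones. These are descriptions across sites that share 14 libraries. H3K27ac peaks are wide, and how much of this overlap comes from marks centred on the neighbouring PPARG peak was not tested.

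Whether cold moved the share could hardly be tested with so few libraries. In the WT cohort the mean share was 26.6% ± 4.81 (SD) at RT and 23.2% ± 2.84 in cold (3 libraries each; difference -3.39 points, exact permutation, two-sided, p = 0.4; smallest possible 0.1), and the groups overlapped. Without WT RT replicate 1 the difference was -0.631 points. In Txnip WT mice it was 26.6% ± 2.98 at RT and 32.6% ± 1.08 in cold (2 libraries each; 6.09 points, exact permutation p = 0.33, the smallest possible). With lists of equal length the Txnip WT difference was 3.93 points, with peaks of −log10 q of at least 10 it was 3.28, and without Txnip WT RT replicate 2 it was 3.98. In Txnip KO mice it was 21.7% ± 0.0339 and 39.3% ± 0.169 (2 libraries each; 17.5 points, exact permutation p = 0.33, the smallest possible), without overlap. Adjusted over the 10 share tests these p-values were 0.444, 0.416 and 0.416.

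The Txnip KO lists themselves differed in length, with 37555 and 42294 peaks at RT (73.2 and 87.6 Mb covered) and 54832 and 53651 in cold (108 and 102 Mb). With all H3K27ac lists reduced to the same number of peaks the KO difference was 11 points. The same KO comparison gave 7.35 points at PPARG-bound constant sites, where the RT share was already 79.9%, and 13.4 points at cold-only PPARG-free sites. By site, 235 PPARG-free constant sites (11.3%) had H3K27ac in both KO cold lists and neither KO RT list, and 2 had the reverse. The same class held 8.21% of cold-only PPARG-free sites and 4.60% of PPARG-bound constant sites. For Txnip WT the counts were 97 (4.65%) and 29, and the first class held 3.93% of cold-only and 1.66% of PPARG-bound sites. These shares were not tested against each other. In the WT cohort 8 sites had H3K27ac in all 3 cold lists and no RT list, 18 the reverse, 301 in all 6 lists and 1300 in none.

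The amount of H3K27ac was tested as the peak-covered length in a 4-kb window around each merged ERR1 site, scaled to the library total, with limma across 36211 sites covered in at least 2 libraries. Merging left 2077 sites that held a PPARG-free constant site, and 1058 of them passed that filter; 29 of these passed through 1 group alone. Counts are calls at an adjusted p under 0.05. In the WT cohort 26 of 1058 rose in cold, 2.46% (all sites tested: 3.34%), and 66 fell, 6.24% (all sites: 7.89%), so both shares were near or under the background. Leaving out WT cold replicate 2 gave 17 rises (1.61%, all sites: 1.86%) and 38 falls (3.6%, all sites: 4.7%). Leaving out WT RT replicate 1 gave 24 rises (2.3%, all sites: 2.19%) and 34 falls (3.26%, all sites: 4.31%).

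In Txnip WT mice 45 of the 1058 rose in cold, 4.25% (all sites: 2.63%), and 18 fell, 1.70% (all sites: 2.41%). Both counts fell without any 1 Txnip WT library, as did those over all sites, and each such fit left 1 library in a group. The median log2 change of PPARG-free constant sites was 0.0271 with all libraries (all sites: -0.0631). Without Txnip WT RT replicate 2 it was 0 (all sites: -0.0418), and without RT replicate 1 it was 0.0311 (all sites: -0.0863). In Txnip KO mice 193 rose, 18.2% (all sites: 7.54%), and 63 fell, 5.95% (all sites: 20.3%). The median change was 0.23 on the log2 scale, against -0.165 for all sites tested, a median that unscaled lengths moved to 0.126. Unscaled, 236 rose and 4 fell (22.3% against 10.7% of all sites, and 0.378% against 0.886%). With calls of at least 0.5 in size (log2), a limit chosen after seeing the data, 190 rose and 17 fell.

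All 23 windows with H3K27ac in Txnip KO cold libraries alone were among the KO rises; they passed the filter only through the group in which they were high. At RT the median window of the 1058 held 0.623 kb of H3K27ac in KO libraries, against 1.97 kb for all sites tested, of which 9.14% were fully covered and could not rise. Division by the library total lowered windows that stayed full in the longer KO cold lists. The Kifc3 window held 4 kb in all 14 libraries and still counted as a KO fall (log2 change -0.343, limma adjusted p = 0.033). In KO cold 6.43% of the 1058 windows were full, against 13.1% of all sites tested. How much of the difference in falls came from full windows was not tested. Both KO counts fell without KO cold replicate 1, KO cold replicate 2 or KO RT replicate 1, as did those over all sites. Each of these fits left 1 library in a group. The median log2 changes of PPARG-free constant sites were then 0.177, 0.125 and 0.253, in that order (all sites: -0.153, -0.186 and -0.13). Of the 45 Txnip WT rises, 31 (68.9%) were also among the 193 KO rises, of which they were 16.1%. Over all sites tested, 607 of 954 Txnip WT rises (63.6%) were also KO rises, 22.2% of 2729. These cohorts share no library but were in 1 fit, with 1 estimate of the spread. A set of 6 sites rose in all 3 cohorts (0.567%; all sites: 148, 0.409%), with nearest genes Cox11, Epc1, Klf14, Psmb7, Rbbp6 and Rbms3, and 1 fell in all 3, near Commd10 (0.0945%; all sites: 234, 0.646%). Several of these rises depended on the setting. The Rbms3 call held under 2 of 12 alternatives in Txnip WT and 7 of 11 in KO mice, and the Rbbp6 call under 9 of 12 and 6 of 11. The Klf14 call held under 10 of 12 and 4 of 11, and the Psmb7 call under all 12 and all 11.

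The clearest rise in the WT cohort was at chr6:31145654-31145916, 187 kb from Klf14, which encodes a Krüppel-like transcription factor linked to fat tissue metabolism. Its 4-kb window held 0.395, 0.17 and 0 kb of H3K27ac peaks at RT and 2.55, 2.26 and 3.56 kb in cold (lengths as deposited, not scaled). The groups did not overlap, and the log2 change was 2.52 (SE 0.243, limma adjusted p = 0.000186). In Txnip WT mice the same window went from 0.378 and 0.837 kb to 4 and 4 kb (log2 change 1.90, adjusted p = 0.00518), and in KO mice from 0.944 and 1.9 to 4 and 3.83 kb (0.91, adjusted p = 0.0412). All 3 CEBPA and both CEBPB lists had a peak there, and no PPARA or PGC1A list did. The nearest PPARG peak lay 10.3 kb away. The site in Psmb7, a proteasome subunit gene, was the steadiest and lay 1.62 kb from a PPARG peak. It held 0.681, 0.797 and 0.723 kb at RT and 2.46, 2.27 and 2.47 kb in cold (log2 change 1.37, SE 0.114, limma adjusted p = 9.31e-05), with 0.708 to 0.79 kb at RT and 2.48 to 2.75 kb in cold in the Txnip libraries. Both WT calls held under all 13 alternatives tried for each. The Psmb7 calls of both Txnip cohorts also held under all of theirs (12 and 11), while the Klf14 call in KO mice was lost without KO cold replicate 1, KO cold replicate 2 or KO RT replicate 1.

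Smaller rises came from windows that were empty or nearly so at RT. Rbbp6, a ubiquitin ligase gene, had 0 kb in all 3 RT libraries and 0.519, 0.43 and 0.567 kb in cold (log2 change 1.20, SE 0.195, limma adjusted p = 0.00297). Rbms3, which encodes an RNA-binding protein, had 0.368, 0.292 and 0 kb against 0.886, 1.11 and 1.15 kb (1.32, SE 0.274, adjusted p = 0.01). Both of these sites carried CEBPA in 2 lists and CEBPB in 2. Ahnak, the gene of a large scaffold protein, had 0 kb at RT in 3 libraries and 0.64, 0.529 and 1.06 kb in cold (1.51, SE 0.336, adjusted p = 0.0145). The Ahnak call was lost without WT cold replicate 3, and the one in Aig1 (1.12, adjusted p = 0.0332) without cold replicate 2, cold replicate 3 or RT replicate 3. With H3K27ac peaks of −log10 q of at least 10 the calls at Rbbp6, Rbms3, Ahnak and Aig1 were lost (limma adjusted p = 0.734, 0.15, 0.246 and 0.649). The nearest PPARG peaks lay 17.8, 0.434, 0.349 and 2.92 kb from these sites, in the same order.

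The 6 largest falls in the WT cohort were in windows that all RT libraries had marked and most cold libraries had not. The site in Rdh10, the retinol dehydrogenase of retinoic acid synthesis, held 3.2, 0.991 and 1.24 kb at RT and 0 kb in all 3 cold libraries (log2 change -2.29, SE 0.304, limma adjusted p = 0.000978). Mtr, methionine synthase, held 1.41, 0.871 and 0.752 kb against 0 kb (-1.75, SE 0.24, adjusted p = 0.00112). Tcf7, a transcription factor of Wnt signalling, held 1.43, 1.14 and 0.954 kb against 0 kb (-1.93, SE 0.237, adjusted p = 0.00062). No H3K27ac peak overlapped the Tcf7 site itself in any of the 14 libraries, so these lengths lay beside it. St3gal4, a sialyltransferase gene, held 2.21, 1.83 and 1.4 kb against 0, 0 and 0.557 kb (-2.01, SE 0.317, adjusted p = 0.00252). RT and cold values did not overlap at any of these 4 sites. With H3K27ac peaks of −log10 q of at least 10 the calls at Rdh10, Tcf7 and St3gal4 were lost (limma adjusted p = 0.146, 0.515 and 0.501). The Mtr site could not be tested that way, since fewer than 2 libraries had such a peak in its window. Its call held under the 12 alternatives that could be run. In Txnip KO mice none of the 4 passed the test, with log2 changes from 0.04 at Rdh10 to 0.79 at Tcf7 (adjusted p from 0.0615 to 0.96). None passed in Txnip WT mice either, where the log2 change was -1.41 at Rdh10 (adjusted p = 0.053), -0.46 at Mtr (0.482), -0.11 at Tcf7 (0.877) and -0.48 at St3gal4 (0.575). The difference between the WT cohort and either Txnip genotype was not tested. None of these 4 sites had a peak of PPARA, PGC1A, CEBPA or CEBPB. A PPARG peak lay 1.42, 0.567, 1.12 and 0.087 kb from the Rdh10, Mtr, Tcf7 and St3gal4 sites. The tested window reached 2 kb on each side, and how much of each fall lay at the PPARG peak was not tested.

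The site in Urb1, a ribosome biogenesis gene, held 2.67, 0.578 and 2.15 kb at RT and 0 kb in the 3 cold libraries (-2.25, SE 0.435, adjusted p = 0.00698), and in Txnip WT mice 4 and 2.68 kb against 0 and 0.449 kb (-2.44, adjusted p = 0.0244, lost without any 1 of the 4 libraries). The WT call at Urb1 was lost with 1 kb on each side (limma adjusted p = 0.128) and with H3K27ac peaks of −log10 q of at least 10 (0.54). A ubiquitin ligase gene, Rnf217, had the highest adjusted p of the 6 falls named (-2.09, adjusted p = 0.0398), and that call was lost without any 1 of the 3 cold libraries, RT replicate 1 or RT replicate 2. A PPARG peak lay 1.29 kb from the Urb1 site and 0.403 kb from the Rnf217 site.

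**Figure D3:**
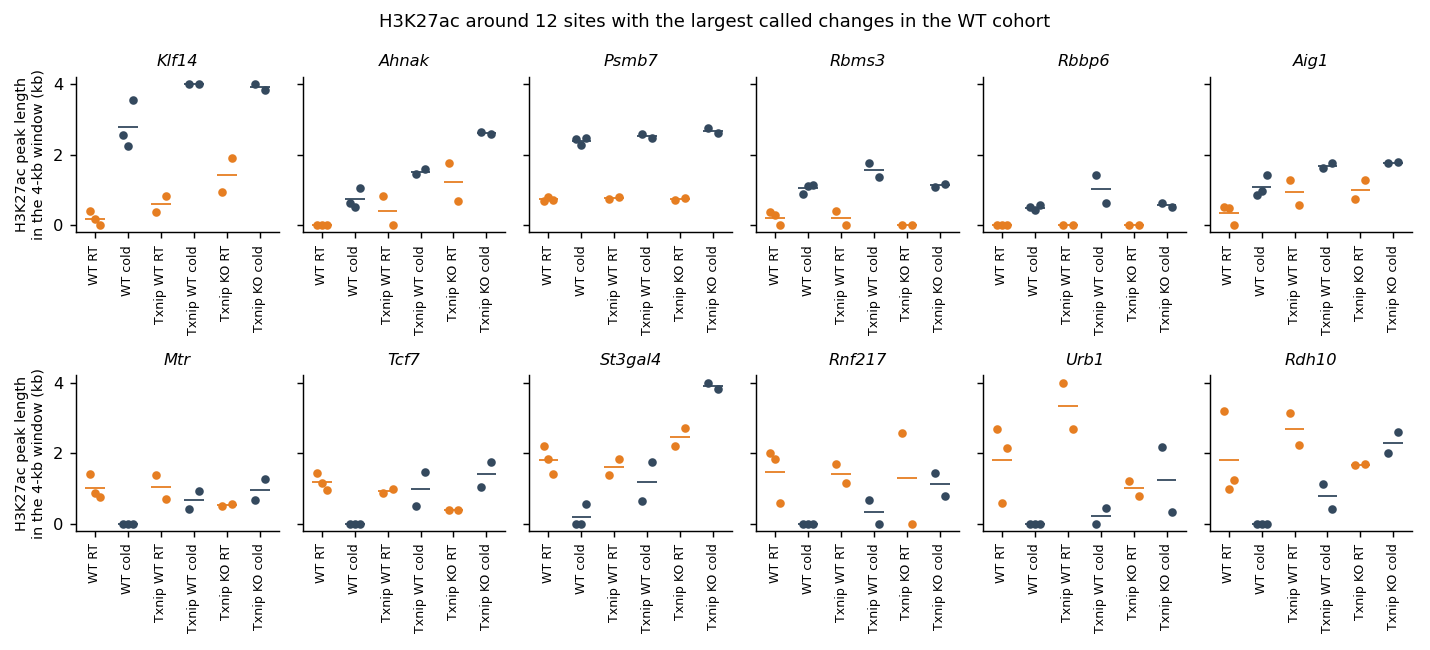
Length of H3K27ac peaks in kb (vertical axis, 0 to 4) in the 4-kb window around 12 PPARG-free constant sites, named by the nearest gene, by cohort and condition; points are libraries and lines are means. The upper row holds the 6 largest called rises in the WT cohort and the lower row the 6 largest falls; Psmb7 shows the same step in all 3 cohorts.

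In the Txnip cohorts the largest rises came from empty or nearly empty windows. Near Apobec1, which edits RNA, the window held 0 kb in both KO RT libraries and 4 and 3.35 kb in cold (log2 change 2.70, limma adjusted p = 0.00149), and 0.352 and 0 kb against 2.58 and 2.82 kb in Txnip WT mice (2.14, adjusted p = 0.00582, lost without Txnip WT RT replicate 2). All 3 CEBPA and both CEBPB lists had a peak at that site, 30.6 kb from the nearest PPARG peak. Adam17, a protease that sheds cell surface proteins, held 0 kb in all 4 Txnip RT libraries and 2.14 and 2.12 kb in Txnip WT cold (2.22, adjusted p = 0.00331), a call held under all 12 alternatives, and 2.12 and 1.7 kb in KO cold (1.95, adjusted p = 0.0043). The Gpd2 site held 0.465 and 0 kb at RT against 1.75 and 2.88 kb in cold in Txnip WT mice (1.85, adjusted p = 0.046) and 0 kb against 2.8 and 1.99 kb in KO mice (2.19, adjusted p = 0.0156). The first of these Gpd2 calls was lost without any 1 of the 4 Txnip WT libraries, and the second without any 1 KO library other than RT replicate 2. Of the 3 largest KO falls, the one in Anks1 went from 2.93 and 2.27 kb to 0 kb (-2.61, limma adjusted p = 0.0197). Those at Nol10 (-1.19), where no H3K27ac peak overlapped the site itself in any library, and at Dtna (-1.33) were smaller. Each of these 3 was lost without KO cold replicate 2 or KO RT replicate 1, and those at Anks1 and Nol10 also without KO cold replicate 1.

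The cold change differed between Txnip KO and Txnip WT mice at 6 of the 1058 sites by the interaction test. It was higher in KO at 5 (0.473%; all sites: 0.157%) and lower at 1 (0.0945%; all sites: 0.0249%). By limma, 0 of the 1021 sites tested in a fit of the 8 Txnip libraries alone were called, where 129 were higher and 24 lower in KO at an unadjusted p under 0.05. With the replicate number as a block 0 of 1058 were called, with 106 higher and 18 lower at an unadjusted p under 0.05.

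Other factors were rare at PPARG-free constant sites. PPARA peaks overlapped 3.84 and 2.83% of them at RT and 0.911, 0.384 and 0.623% in cold, against 73.8 and 70.6% and 27.5 to 42.6% of PPARG-bound constant sites. PPARA and PPARG bind the same kind of element, and absence of PPARG was a condition of the choice. PGC1A overlapped 2.92, 2.21 and 3.74%, against 16.9 to 21.7%. CEBPA overlapped 12.5, 13.1 and 18.7%, against 54.0 to 68.7%, and CEBPB 18.1 and 19.6%, against 53.0 and 57.3%. The share was lower in every library of every factor. Mean differences were -47.1 points for PPARA (5 libraries, exact sign-flip permutation, two-sided, p = 0.0625), -16.5 for PGC1A (3, p = 0.25), -44.4 for CEBPA (3, p = 0.25) and -36.3 for CEBPB (2, p = 0.5). Each p is the smallest those libraries allow, so none could pass 0.05 (adjusted over the 10 share tests, 0.208, 0.416, 0.416 and 0.5). The PGC1A difference was -5.95 points when both sets were held to the interquartile range of RT folds. The PPARA difference was -31.2 with peaks of −log10 q of at least 10 and -31.3 with lists of equal length.

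**Figure D4:**
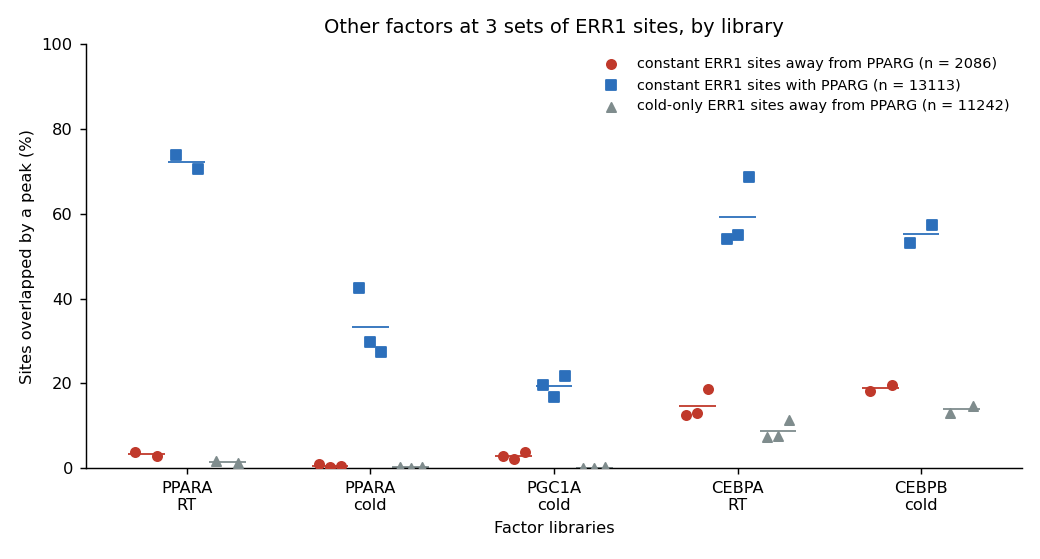
Percent of sites overlapped by a peak of PPARA, PGC1A, CEBPA or CEBPB (vertical axis) in each library; points are libraries, short lines are group means. At the PPARG-free constant sites CEBPA and CEBPB (12.5 to 19.6%) stand above PPARA and PGC1A (0.384 to 3.84%), and all lie under the PPARG-bound sites.

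CEBPA and CEBPB were the factors met most often. At least 1 CEBPA list overlapped 470 sites (22.5%) and at least 1 CEBPB list 478 (22.9%). They were largely the same sites: 353 had both, 75.1% of the CEBPA sites and 73.8% of the CEBPB sites, and 269 had both and neither PPARA nor PGC1A. CEBPA was profiled at RT and CEBPB in cold, both through the HA tag. Their overlap was not counted at the other ERR1 sites. PPARA sites numbered 144 (6.90%) and PGC1A sites 118 (5.66%). None of the 4 factors was present at 1375 sites (65.9%), against 8.25% of PPARG-bound constant sites. Exactly 1 factor was present at 310 sites, 2 at 312 and 3 at 80.

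PGC1A, the coactivator through which ERR1 is best known to act, was found at few sites, and mostly strong ones. Its 118 sites had a median ERR1 fold of 9.23 at RT and 29.7 in cold, against 6.62 and 11.5 for the 1968 sites without it. The 522 strongest sites by RT fold held 63 of the 118 (12.1% of those sites), and the 522 weakest held 12 (2.30%). H3K27ac was present in at least 1 library at 81.4% of them, against 48.6% of the others, and they lay a median 15.8 kb from a gene start, against 33.7 kb. Peak lists of all 3 PGC1A libraries met at 21 sites (1.01%), against 12.3% of PPARG-bound constant sites. Among cold-only PPARG-free sites 40 of 11242 (0.356%) had any PGC1A. Of the 144 PPARA sites, 73 also had CEBPA.

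All 4 other factors met at 9 sites, each with at least 1 library per factor (0.431%, against 18.4% of PPARG-bound constant and 0.0089% of cold-only PPARG-free sites). By RT fold, 5 of the strongest lay near Raly, an RNA-binding protein gene (24.7), in Arhgap24, which encodes a GTPase-activating protein (16.9), in Sh3rf2 (13.1), in Wnt9b, a secreted Wnt ligand (8.83), and in Phf20l1, a reader of methylated lysine (7.28). H3K27ac at these 5 was present in 6, 9, 0, 0 and 8 of 14 libraries. Their nearest PPARG peaks were 13.4, 0.701, 11.9, 7.76 and 31.3 kb away.

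With all PPARA lists reduced to the length of the shortest, the small drop of PPARA in cold turned into a small rise. As deposited, the mean share went from 3.33% ± 0.712 at RT (2 libraries) to 0.639% ± 0.264 in cold (3 libraries), a difference of -2.69 points without overlap (exact permutation, two-sided, p = 0.1, the smallest possible). The RT lists held 26388 and 23589 peaks and the cold lists 11107, 7370 and 7317. At equal length the difference was 0.399 points (p = 0.1), so its direction changed with list length (adjusted over the 10 share tests, p = 0.25 as deposited).

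The sites were spread thinly over genes. They had 1721 nearest genes, of which 1436 were nearest to 1 site. Counting a locus as a gene body with 10 kb on each side, 1676 of 21631 protein-coding loci held at least 1 site (7.75%). Of these 1063 (63.4%) also held a PPARG-bound constant site and 613 (36.6%) did not. Loci with a site had a median body of 47.0 kb, against 17.3 kb for all loci, and the part of gene length in these counts was not tested. The lists used here follow what ERR1 and BAT are known for, and their counts are set beside 7.75% without a test. The counts depend on the flank: with 2 kb on each side 1257 loci held a site (5.81%).

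Among mitochondrial energy genes the share of loci with a site differed widely between lists. A site lay at 6 of 16 ATP synthase loci (37.5%), 9 of 25 TCA cycle loci (36.0%), 5 of 37 complex I loci (13.5%), 5 of 32 loci of complexes II to IV and cytochrome c (15.6%) and 2 of 24 fatty acid oxidation loci (8.33%). Bodies of the first of these lists are short (median 7.11 kb). With 2 kb on each side the counts were 3 of 16 (18.8%) for ATP synthase, 6 of 25 (24.0%) for the TCA cycle, 5 of 37 for complex I, 2 of 32 (6.25%) for complexes II to IV and cytochrome c and 2 of 24 for fatty acid oxidation. The ATP synthase count was 3 in gene bodies alone as well. The ATP synthase sites were at Atp5j2 (RT fold 8.51, cold 27.5), Atp5o (8.10 and 31.5), Atp5a1 (7.49 and 8.96), Atp5b (7.36 and 56.5), Atp5pb and Atp5c1. H3K27ac covered those in Atp5j2, Atp5a1, Atp5b and Atp5c1 in 13 or 14 libraries, and those near Atp5o and Atp5pb in 0 and 1. PPARG-bound constant sites were there as well, at 15 of the 16 ATP synthase, 24 of 25 TCA cycle and all 37 complex I loci (all protein-coding loci: 34.6%). The PPARG-free site was thus rarely the only constant one. Cold-only PPARG-free sites lay at 56.2% of ATP synthase, 68.0% of TCA cycle and 56.8% of complex I loci (all protein-coding loci: 30.8%).

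Among TCA cycle loci the strongest PPARG-free sites were at Cs, citrate synthase (7.73 and 33.3), and in Idh3g, a subunit of isocitrate dehydrogenase (7.73 and 25.6). The Idh3g site had PPARA and PGC1A and H3K27ac in all 14 libraries. Suclg2, a subunit of succinyl-CoA ligase, and Mdh2, malate dehydrogenase, followed (7.15 and 6.96) and had H3K27ac in 0 libraries. Cox7b stood apart in the respiratory chain lists: it held 3 PPARG-free constant sites (RT folds 14.7, 6.19 and 4.64), all with H3K27ac in 14 libraries, and no PPARG-bound constant site. The first and last of these met the same cold peak, of fold 33.3, and both had PGC1A. Ndufa8, a complex I subunit gene, had a site with PGC1A and a cold fold of 46.7 (RT 6.62). Cox6b1 (8.83 and 24.3) also had PGC1A. Both fatty acid oxidation loci with a site, Eci1 (10.1) and Acsl1 (8.83), had H3K27ac in all 14 libraries.

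Genes of mitochondrial upkeep gave 9 of 40 loci for import, fusion and quality control (22.5%), 10 of 77 for the mitochondrial ribosome (13%) and 5 of 39 for carriers (12.8%), and with 2 kb on each side 7, 7 and 4. Vdac2, an outer membrane channel (10.1), Mfn2 and Mfn1, which fuse mitochondria (7.73 and 6.19), and the deacetylase Sirt3 (7.15) had sites with H3K27ac in all 14 libraries. The Sirt3 site carried PGC1A. Slc25a44, the branched-chain amino acid carrier of BAT mitochondria (13.1), had CEBPA, CEBPB and H3K27ac in all 14. Mrps24, a ribosome subunit gene, led its list (12.4) with PGC1A and CEBPB. One site can serve more than 1 locus: Ndufb5 and Mrpl47 shared one, as did Ndufs6 and Mrpl36, Hspd1 and Hspe1, and Slc25a29 and Yy1.

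Regulators of mitochondrial biogenesis held sites at 7 of 22 loci (31.8%), and ERR partners and coregulators at 5 of 21 (23.8%), and with 2 kb on each side at 6 and 5. Ppargc1b, the gene of PGC1B, held 4 sites within its body (RT folds 8.10, 6.19, 5.89 and 4.08), with H3K27ac in 14, 14, 11 and 14 libraries, 0.237 to 0.799 kb from a PPARG peak and none with another factor. The window of the strongest gave a log2 change of -0.59 in the WT cohort (limma adjusted p = 0.0426), a call lost without any 1 of the 6 WT libraries. Ppargc1a, the gene of PGC1A, held a site 2.1 kb past its body (7.73) with CEBPA, and one inside (4.64) with CEBPA and CEBPB, marked in 1 and 4 libraries and 24.8 and 35 kb from PPARG. Esrrg, the sister receptor ERRγ, held 2 sites (7.73 and 5.41), marked in 0 and 2 libraries. Ppara (5.82), Nfe2l2 (8.45), Tfb2m (5.41) and Yy1 (10.1) made up the rest of the biogenesis loci. Ncor1, a corepressor (7.73), had CEBPA and CEBPB and no PPARG-bound constant site.

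At 12 of the 15 genes followed as known ERR1 partners or targets no PPARG-free constant site was found. These were Esrra itself, Esrrb, Nrip1, Perm1, Cycs, Idh3a, Gabpa, Nrf1, Tfam, Ucp1, Pdk4 and Cpt1b. Each of them held at least 1 PPARG-bound constant site, from 1 at Cycs, Nrf1 and Tfam to 6 at Idh3a and Cpt1b. Ucp1, the uncoupling protein of BAT, held 4, and Esrra 3.

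Thermogenesis genes held sites at 8 of 25 loci (32.0%), creatine and calcium cycling genes at 4 of 13 (30.8%), lipolysis and lipid droplet genes at 6 of 18 (33.3%), glucose uptake and glycolysis genes at 7 of 24 (29.2%) and de novo lipogenesis genes at 5 of 18 (27.8%). With 2 kb on each side these counts were 7, 2, 4, 5 and 4. Acot11, a cold-induced thioesterase, held 3 (12.0, 9.28 and 4.64), and Adrb1, the β1-adrenergic receptor, held 1 (10.9) with H3K27ac in all 14 libraries and no PPARG-bound constant site. Slc6a8, the creatine transporter (15.5), and Ckb, creatine kinase B (8.10), both had PGC1A at their site, and Slc6a8 also had no PPARG-bound constant site. Atp2a2, the calcium pump of the reticulum (8.10), had PGC1A, CEBPA and CEBPB. In glycolysis, Hk1, a hexokinase gene, held 3 sites (11.8, 5.85 and 4.64), and Slc2a1, the glucose transporter GLUT1, held 1 (5.41) and no PPARG-bound constant site. Fasn, fatty acid synthase, held 1 (8.51) with H3K27ac in 11 libraries.

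The lowest counts outside the mitochondrial lists were those of adipocyte identity (2 of 20 loci, Pparg and Adipor2, with 2 sites each), the circadian clock (2 of 19), cAMP and immediate early genes (3 of 24), the cytosolic ribosome (2 of 53) and markers of other cell types. Skeletal muscle, endothelial and fibroblast or preadipocyte markers had a site at 0 of 14, 0 of 14 and 0 of 12 loci, and macrophage and lymphocyte and Schwann cell and nerve markers at 1 of 12 (Spi1) and 1 of 10 (S100b). Autophagy and lysosome genes had 4 of 21. PPARG-bound constant sites lay at 19 of 20 adipocyte identity loci (95%), against 34.6% of all protein-coding loci. The other lists of BAT and housekeeping genes ranged from 38.5 to 100% for PPARG-bound sites, and those of other cell types from 8.33 to 40%.

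**Figure D5:**
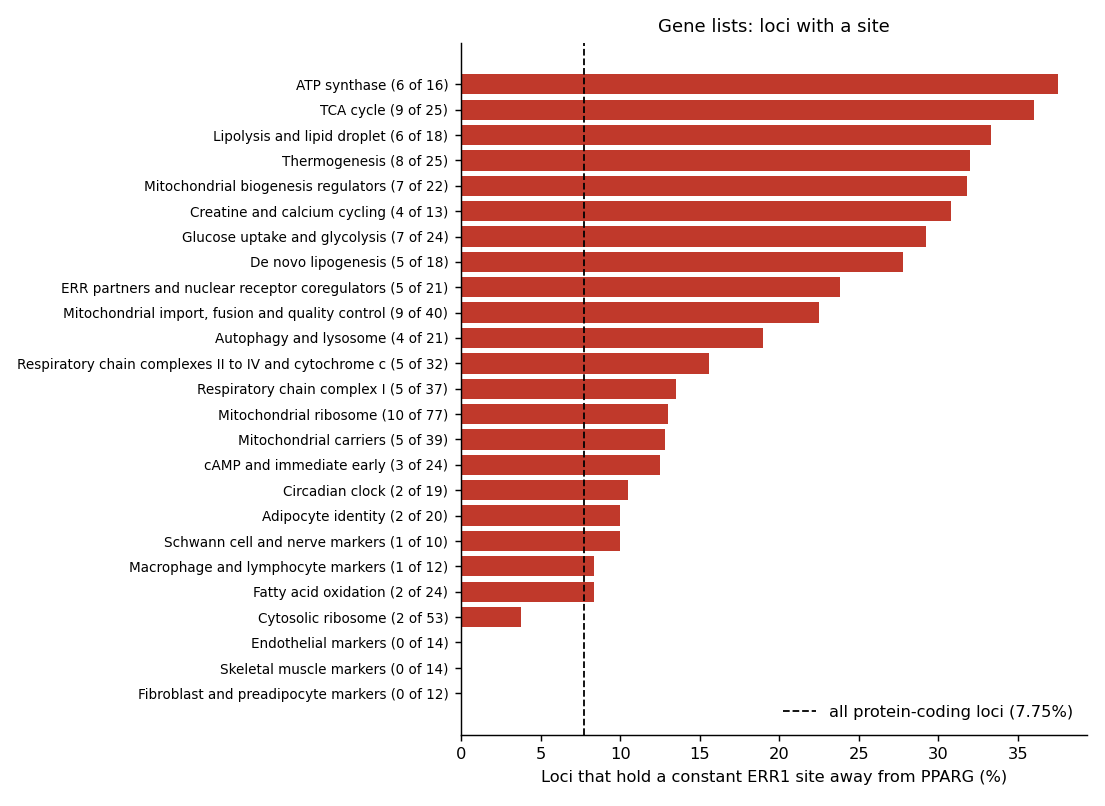
Percent of the loci of each gene list (horizontal axis) that hold a PPARG-free constant ERR1 site, with counts beside each name; the dashed line is the share of all protein-coding loci, 7.75%. A locus is the gene body with 10 kb on each side, at which ATP synthase and TCA cycle genes stand at 37.5 and 36.0% (18.8 and 24.0% with 2 kb on each side), and muscle, endothelial and fibroblast markers stand at 0.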

How the data were processed

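Build GRCm38.p6 is named in the submitters' processing notes, as are MACS2 2.2.7.1, BWA 0.7.17, deepTools 3.4.3, Trim Galore 0.6.0 and SAMtools, with no role or setting. Per the labels' protocols, tissue was fixed with 0.8% formaldehyde for 12 min, for all targets but H3K27ac after 2 mM DSG for 25 min. The authors deposited 1 peak list per library, for 35 of 52 samples; the 17 inputs were not used here. Each deposited peak has a score, a fold enrichment (ratio) at its summit and, as −log10 values, its q-value and p-value. These were used only to describe, rank or filter peaks within a list. Read depth is unknown from such lists, so no depth-based interval was computed, and the number of peaks can move with depth.

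Groups and replicate numbers came from titles. Overlap meant at least 1 bp. H3K27ac peak length in windows of 2 kb on each side of merged ERR1 site centres was divided by the library total (times the mean total), and log2 of this plus 500 bp was tested in 1 fit of 14 libraries (limma 3.58.1 in R 4.3.3, two-sided, empirical Bayes with a trend, threshold 0.05 after Benjamini-Hochberg adjustment), so changes of thinly covered windows are understated. Shares were compared by exact permutation of libraries (Python 3.11.15, numpy 2.4.6, pandas 2.3.3). Tested on simulated data for the WT cohort over 36211 sites, the fit recovered 52% of log2 changes of 1. Gene names came from RefSeq's table of GRCm38.p6, without strand; 630 of 631 gene list names matched. A locus was a gene body with 10 kb on each side, with 2 kb as an alternative. Motif search covered promoter windows in place of sites, since no genome sequence was used. Sites named were the 12 strongest, the leading sites of each gene list, the largest called H3K27ac changes without overlap (6 each way in the WT cohort, 3 in each Txnip cohort), the 6 strongest with most factors, the 5 genes with most sites, 3 at each side of each limit, and 15 key genes; the text prints some of these (a few sites are not reported here), and Gpd2 in the Txnip cohorts, the sites that changed in all 3 cohorts and the sites in promoter windows were added after their values were seen. The sites and gene lists were chosen with earlier results of these data known. Same-numbered libraries were checked for pairing, with correlations of their deviations from group means of 0.036, 0.111 and -0.125 in the WT cohort, so the numbers did not pair them.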

Additional observations from a re-analysis of the deposited data

Results flagged for a closer look

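At 6 PPARG-free constant sites the cold change of H3K27ac differed between Txnip KO and Txnip WT mice by the interaction test (KO minus Txnip WT, log2 scale, limma), and 4 of them are described here. In Etv6, the gene of an ETS-family repressor, the difference was 4.07 (adjusted p = 0.0245): KO values went from 0 and 0 kb at RT to 2.49 and 2.96 kb in cold, and Txnip WT values from 1.43 and 1.05 kb to 0 kb. Near Septin12, a cytoskeletal gene, it was 2.82 (adjusted p = 0.0258), with KO values of 0 and 0 kb against 0.55 and 0.55 kb and Txnip WT values of 1.64 and 1.43 kb against 0 kb. Near Eya4, a transcriptional coactivator gene, it was 2.32 (adjusted p = 0.0032), but no H3K27ac peak overlapped the site itself in any of the 14 libraries. In B4galt1, a galactosyltransferase gene, the difference was -1.94 (adjusted p = 0.00874): Txnip WT values rose from 0.599 and 0.378 kb to 4 and 3.7 kb, while KO values were 2.61 and 2.88 kb at RT and 4 and 3.56 kb in cold. The nearest PPARG peaks lay 5.39, 1.37, 0.511 and 3.37 kb from the Etv6, Septin12, Eya4 and B4galt1 sites.

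All 4 calls were lost in a fit of the 8 Txnip libraries alone and with the replicate number as a block (limma adjusted p in that order 0.155 and 0.155 for B4galt1, 0.207 and 0.206 for Eya4, 0.184 and 0.309 for Septin12, 0.0813 and 0.138 for Etv6). With H3K27ac peaks of −log10 q of at least 10 the B4galt1 call (adjusted p = 0.0523) and the Etv6 call (difference 2.00, adjusted p = 0.509) were lost as well. With 1 kb on each side the Septin12 difference was 1.36 (adjusted p = 0.268). The Eya4 and B4galt1 calls held without each Txnip library in turn. The Septin12 call was lost without any 1 Txnip library other than Txnip WT cold replicate 2, and the Etv6 call without any 1 KO library, Txnip WT cold replicate 1 or Txnip WT RT replicate 1.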

How the results depend on the processing

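All 10 comparisons of shares kept their direction under the alternatives run, apart from PPARA in cold against RT at lists of equal length (0.399 points). With their number of libraries 8 of the 10 could not reach 0.05 under any setting; the other 2, H3K27ac against PPARG-bound and against cold-only sites, stayed under it. Counts of H3K27ac calls moved more, and the cause was not tested beyond what each alternative changes by construction. With no scaling, WT rises were 15, KO falls 4 and interaction calls 30 and 2. With 1 kb on each side, WT calls were 17 and 40. With H3K27ac peaks of −log10 q of at least 10 they were 8 and 28 in WT, 29 rises in Txnip WT, 110 and 11 in KO, and 45 and 2 for the interaction. With no filter on covered libraries, WT falls were 38, Txnip WT calls 27 and 11, KO 115 and 21, interaction 24 and 2. With 100 bp added, Txnip WT falls were 11 and interaction calls 18 and 2. In a fit of the cohort alone, Txnip WT rises were 29, KO calls 125 and 8, interaction 0 and 0 by limma (as reported: 5 and 1). With calls of at least 0.5 (log2), KO falls were 17.

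With the replicate number as a block, calls were 26 and 10 in Txnip WT, 82 and 11 in KO and 0 and 0 for the interaction by limma (106 and 18 at an unadjusted p under 0.05); the WT cohort gave 20 and 59. Txnip WT numbers correlated at -0.112, and with crossed numbers as a block, chosen after seeing the data, calls were 26 and 8. No number was shown to pair libraries.

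Leaving out 1 library at a time gave 17 to 37 rises and 34 to 76 falls in WT, 13 to 37 and 5 to 13 in Txnip WT, 29 to 165 and 0 to 85 in KO, and 1 to 10 and 1 to 1 for the interaction. The share differences ranged from -5.04 to -0.631 points in WT, 3.98 to 8.20 in Txnip WT and 17.4 to 17.7 in KO.

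With ERR1 peaks of −log10 q of at least 10, 592 sites were left of 2086; other definitions gave 1681 to 2824. Called changes of named sites kept their call in 433 of 629 reruns, lost it in 195, and reversed in 1: Dtna in KO, 0.45 with the stricter H3K27ac peaks (adjusted p = 0.193). A search 50 bp around ERR1 summits was not run. ERR1 has 1 library per condition, so the constancy of each site has no replicate check.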

Other observations

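Some genes gathered several PPARG-free constant sites. Mkln1 and Prkce were each nearest to 5 sites, and 13 genes, among them Ackr3, Cdyl and Clint1, to 4. The 4 sites nearest to Cdyl, a chromodomain protein gene, were strung over 94.4 to 254 kb from its body (RT folds 11.7, 11.6, 10.8 and 7.73) and had H3K27ac in 2, 0, 1 and 0 libraries. The 4 nearest to Clint1, which encodes an adaptor of clathrin-coated vesicles, lay 29.0 to 413 kb away (14.7, 6.99, 6.96 and 5.41), none with H3K27ac, and 1 of them had CEBPA in all 3 lists and CEBPB in both. Those at Mkln1, which encodes muskelin, were unlike these: 3 of 5 had H3K27ac in all 14 libraries. At Ackr3, a chemokine scavenger receptor gene, the site 18.1 kb from the body (13.9 at RT, 66.8 in cold) lay 13 bp from a PPARG peak and was marked in all 14 libraries, while the sites 178 and 186 kb away were marked in none.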
